A study of Zea mays with 18 samples.

Results

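The structural genes of the flavonoid and anthocyanin pathway of maize were followed through ear inflorescence and ear of control and transgenic plants. They were chosen by name and role, as the rows of the deposited table for c2 (GRMZM2G422750), whp1 (GRMZM2G151227), chi1 (GRMZM2G155329), fht1 (GRMZM2G062396), pr1 (GRMZM2G025832), a1 (GRMZM2G026930), a2 (GRMZM2G345717), bz1 (GRMZM2G165390) and bz2 (GRMZM2G016241). These are 9 of 76612 transcripts, and 7 of them averaged a normalized count of 10 or more over the 18 libraries. The reference gene table gives the same name for 8 of them, and it leaves the pr1 identifier without a gene name. All plants were 1 hybrid, NN6306, grown in the field in 2012. Control plants (labelled WT) lacked the ATHB17 cassette, and where a hybrid carried insect protection or glyphosate tolerance traits, control and events carried the same ones. Events 1 and 2 are independent single-copy insertions in which the constitutive rice actin promoter drives the full ATHB17 coding sequence of Arabidopsis, and splicing in maize leaves a protein, ATHB17Δ113, without its N-terminus and most of its repression domain. Each genotype was sampled as ear inflorescence, the immature ear before flowering, and as ear at silking, in 3 biological replicates, which makes 6 groups and 18 libraries.

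Flavonoids are made from phenylalanine-derived coumaroyl-CoA. Chalcone synthase builds the chalcone, chalcone isomerase closes its ring, and hydroxylases, a reductase, a dioxygenase and a glucosyltransferase turn the product into coloured anthocyanins that are moved into the vacuole. In maize these steps are known from kernel and plant colour mutants. Pairs of MYB and bHLH regulators (c1 or pl1 with r1 or b1) switch on the anthocyanin genes, whereas the MYB regulator p1 acts on a smaller set of them for phlobaphenes in the cob and pericarp and for the C-glycosyl flavone maysin in silks. Silks, husks, glumes and cob tissue can all hold flavonoids in a maize ear.

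Reads assigned to transcripts ranged from 27293941 to 52655576 per library, counted once for each transcript that a read was assigned to. The first principal component of all transcripts averaging at least 10 held 78.1% of the variance and set ear inflorescence (72.1 to 202.4) apart from ear (-158.7 to -58.4). Event 1 ear inflorescence replicate 1 and event 2 ear replicate 2 lay at the far positive end of the first range and the near end of the second. Of 13 inflorescence meristem identifiers, 4 were higher in all 9 ear inflorescence libraries than in any ear library (lg4, ba1, ub2 and ra1). Of these ra1 was sparse, at 17.3 or less in ear inflorescence and 0 in every ear library. The other identifiers of the list overlapped, with td1 at 287 to 580 against 561 to 795 in ear. The meristem sum of normalized counts also overlapped, at 11679 to 29239 in ear inflorescence and 10316 to 14134 in ear. Of transcripts averaging at least 10, 16.8% were higher in all ear inflorescence libraries and 20.6% in all ear libraries. Of 6 carpel and ovule identifiers 3, and of 6 leaf and husk identifiers 4, were higher in all ear libraries. Their summed normalized counts ran from 5684 to 13396 in ear inflorescence and 18172 to 23041 in ear for carpel and ovule, and from 1974 to 3454 and 5019 to 7118 for leaf and husk. Endosperm-list genes (3 of 7 higher in all ear libraries and 1, pbf1, higher in all ear inflorescence libraries, sum 34785 to 67659 against 72325 to 96317, almost all of it sh1 at 29674 to 64082 against 69284 to 92561) and anther-list genes (sum 5313 to 7096 against 1847 to 3781, almost all of it ocl4, with ms26 at most 4.16 in any library) also differed. The part of these cell types in the results below was not tested, and fewer cells of a type and less RNA per cell cannot be told apart in whole tissue.

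Most steps of the pathway gave a clear signal in both tissues, and a pair gave almost none. The levels below are deposited normalized counts, which are not divided by transcript length, so they are compared between libraries and not between genes. The sparse members were fht1, flavanone 3-hydroxylase, with 0 to 5 reads per library and 34 reads in all 18, and a2, anthocyanidin synthase, with 1 to 11 reads per library and 110 reads in all. Normalized counts of fht1 were 0.720 to 4.63 in ear inflorescence and 0 to 3.57 in ear. For a2 they had a median of 6.49 in ear inflorescence and 5.62 in ear, with a highest value of 9.25 in event 2 ear inflorescence replicate 2. The groups overlapped fully for both, and differences in these genes were not detectable at this depth.

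**Figure D1:**
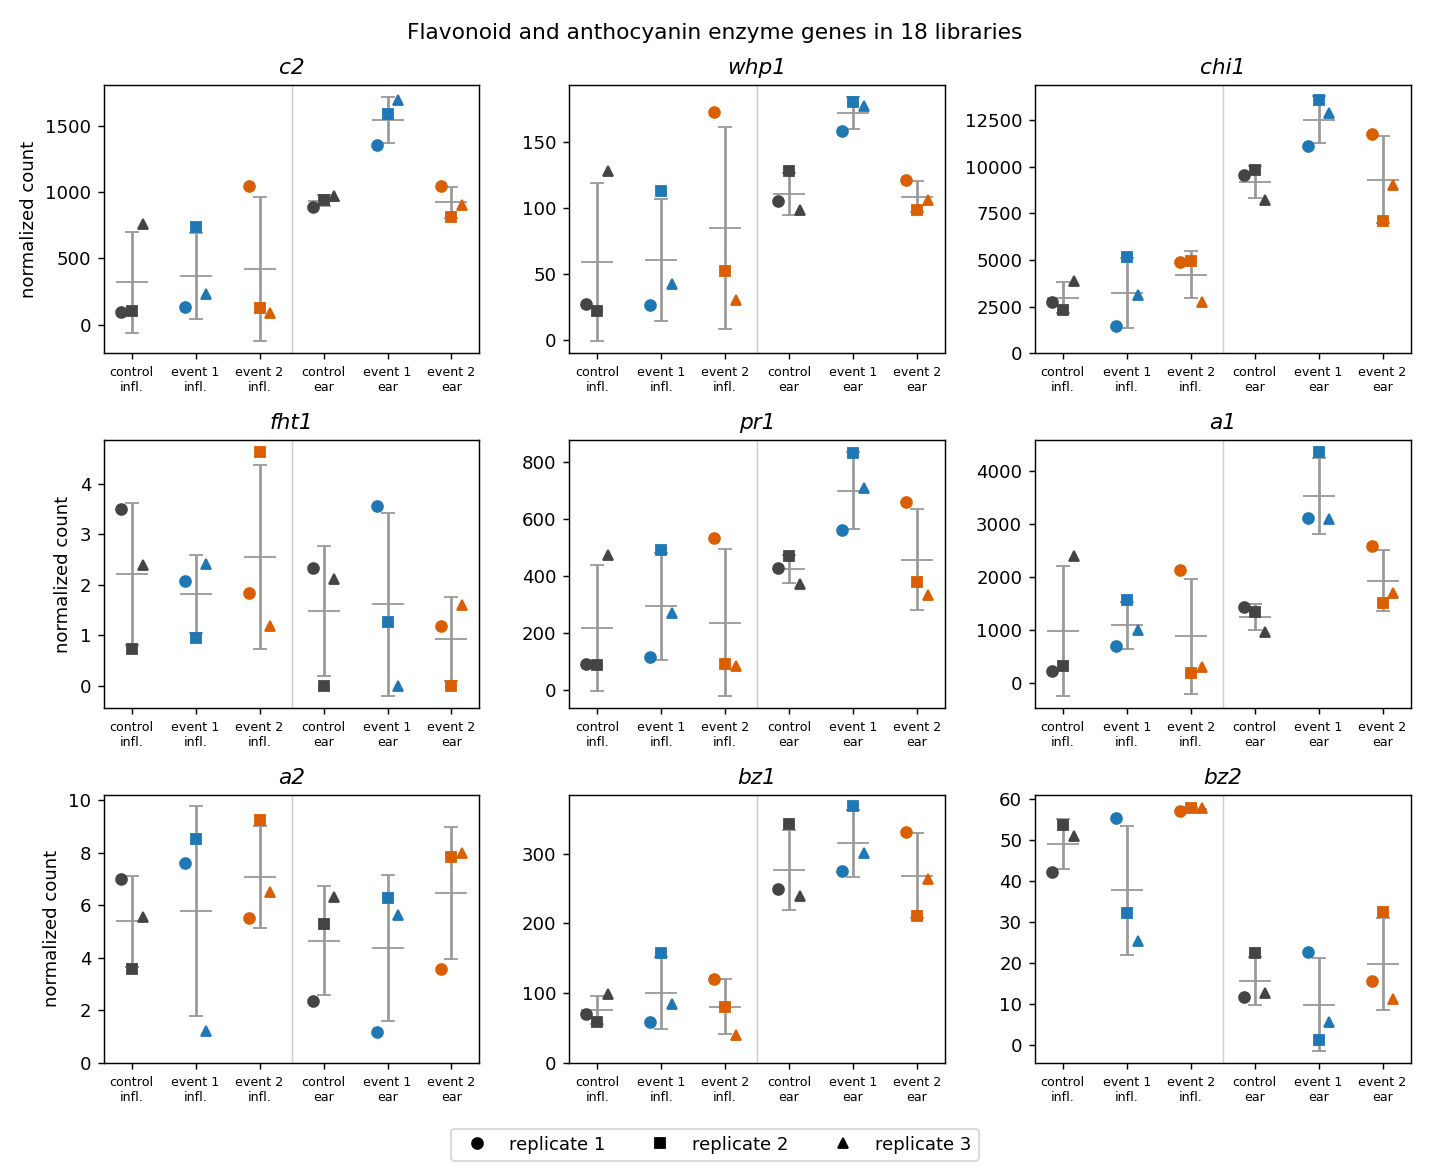
Normalized count of each of the 9 genes (vertical axis, linear) in the 6 groups (horizontal axis), with 1 point per library, the replicate number as its shape, and the mean ± SD of 3 replicates as the grey bar. In ear inflorescence c2 stood at 757, 736 and 1044 in 3 libraries and at 86.1 to 228 in the other 6, while all 9 ear libraries lay between 815 and 1691.

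Early steps. c2 encodes the main chalcone synthase of the kernel and plant. Its normalized counts in ear inflorescence were 91.1, 105 and 757 in control, 130, 736 and 228 in event 1, and 1044, 125 and 86.1 in event 2, for replicates 1, 2 and 3. In ear they were 890, 939 and 972 in control, 1354, 1585 and 1691 in event 1, and 1046, 815 and 905 in event 2. The ear values were close together within each genotype, and the ear inflorescence values were split, with 1 library of each genotype far above its replicates. whp1, the second chalcone synthase gene, showed the same split at 27.3, 22.2 and 128 in control ear inflorescence, 26.3, 113 and 42.3 in event 1, and 172, 52.0 and 30.1 in event 2. In ear whp1 stood at 105, 128 and 98.2 in control, 158, 180 and 177 in event 1, and 121, 98.4 and 106 in event 2. The 3 high ear inflorescence libraries of whp1 reached the range of the ear libraries. chi1 encodes chalcone isomerase. It had 2744, 2314 and 3884 in control ear inflorescence, 1439, 5158 and 3110 in event 1, and 4903, 4950 and 2754 in event 2, against 9533, 9832 and 8202, then 11112, 13552 and 12854, then 11752, 7102 and 9032 in ear. All 9 ear libraries of chi1 were above all 9 ear inflorescence libraries.

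Later steps. pr1 encodes flavonoid 3'-hydroxylase, which sets red against purple pigment. It had 89.0, 86.7 and 472 in control ear inflorescence, 116, 492 and 268 in event 1, and 532, 91.3 and 82.0 in event 2. In ear pr1 had 426, 470 and 371 in control, 560, 830 and 708 in event 1, and 660, 377 and 332 in event 2. Again 1 ear inflorescence library of each genotype reached the range of ear. a1 encodes dihydroflavonol reductase, shared by anthocyanins and phlobaphenes. Its normalized counts were 225, 334 and 2399 in control ear inflorescence, 706, 1567 and 1004 in event 1, and 2141, 199 and 309 in event 2. In ear a1 had 1433, 1341 and 963 in control, 3125, 4362 and 3107 in event 1, and 2586, 1516 and 1707 in event 2. Control ear inflorescence replicate 3 was above all 3 control ear libraries for a1. bz1, the glucosyltransferase that stabilises anthocyanins, had 70.1, 58.7 and 98.6 in control ear inflorescence, 58.9, 158 and 84.6 in event 1 and 120, 80.9 and 40.7 in event 2. Ear was higher throughout for bz1, at 249, 343 and 239 in control, 275, 368 and 301 in event 1, and 331, 210 and 264 in event 2. bz2 encodes the glutathione S-transferase needed for vacuolar transport of anthocyanins. It ran the other way, with 42.1, 53.7 and 50.9 in control ear inflorescence, 55.4, 32.2 and 25.4 in event 1, and 57.0, 57.8 and 57.8 in event 2, against 11.7, 22.4 and 12.7, then 22.6, 1.26 and 5.62, then 15.5, 32.4 and 11.2 in ear. The ranges of bz2 in the tissues overlapped across genotypes, but within each genotype every ear inflorescence library was above every ear library, as for 37.1% (control), 31.9% (event 1) and 27.1% (event 2) of transcripts averaging at least 10.

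The first comparison asked how the pathway differs between an immature and a silking ear. Chalcone isomerase and the glucosyltransferase rose in ear, and the transport gene bz2 fell. Over the 3 genotypes, 4 of the 9 genes passed the threshold of raw_p at or below 0.0001 in limma, where 29.0% of all transcripts did. In ear bz1 rose 3.52-fold, a log2 difference of 1.81 (standard error 0.20, adjusted p = 2.9e-07), and chi1 3.14-fold, a log2 difference of 1.65 (standard error 0.20, adjusted p = 8.0e-07). Their rises passed in each of 28 changes of setting. c2 rose by 2.25 (standard error 0.45, adjusted p = 2.7e-04), and bz2 fell by 1.88 (standard error 0.34, adjusted p = 8.8e-05). chi1 and bz1 were also the 2 members whose 9 ear libraries were all above the 9 ear inflorescence libraries, as were 20.6% of the 39715 transcripts averaging at least 10. The call of c2 was lost when any 1 of 16 of the 18 libraries was left out. It held only without control ear inflorescence replicate 3 (2.57) or without event 2 ear inflorescence replicate 1 (2.61). The adjusted p of c2 stayed between 3.1e-20 (with edgeR) and 0.0083 over all settings that gave one. For bz2 the call held in 4 of 18 fits without 1 library, with adjusted p up to 0.0013.

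At a threshold of adjusted p under 0.05, which 52.2% of all transcripts met over the 3 genotypes, 7 of the 9 genes were called and the other 2 were fht1 and a2. On the log2 scale whp1 rose by 1.27 (standard error 0.34, adjusted p = 0.0037), pr1 by 1.45 (standard error 0.37, adjusted p = 0.0026) and a1 by 1.58 (standard error 0.42, adjusted p = 0.0034). The median log2 fold change of the 9 genes was 1.45, against -0.09 over all transcripts. edgeR's quasi-likelihood test on the recovered reads put the same 7 genes past raw_p 0.0001, where it called 33.8% of all transcripts. Its p-values for c2 and a1, whose replicates scattered, were far below those of the other tests. For a1 over the 3 genotypes edgeR gave raw_p = 1.1e-11, limma 0.0013 and DESeq2 0.031. For c2 in event 2, where the tissues overlapped, edgeR gave raw_p = 2.7e-05 and limma 0.017.

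**Figure D2:**
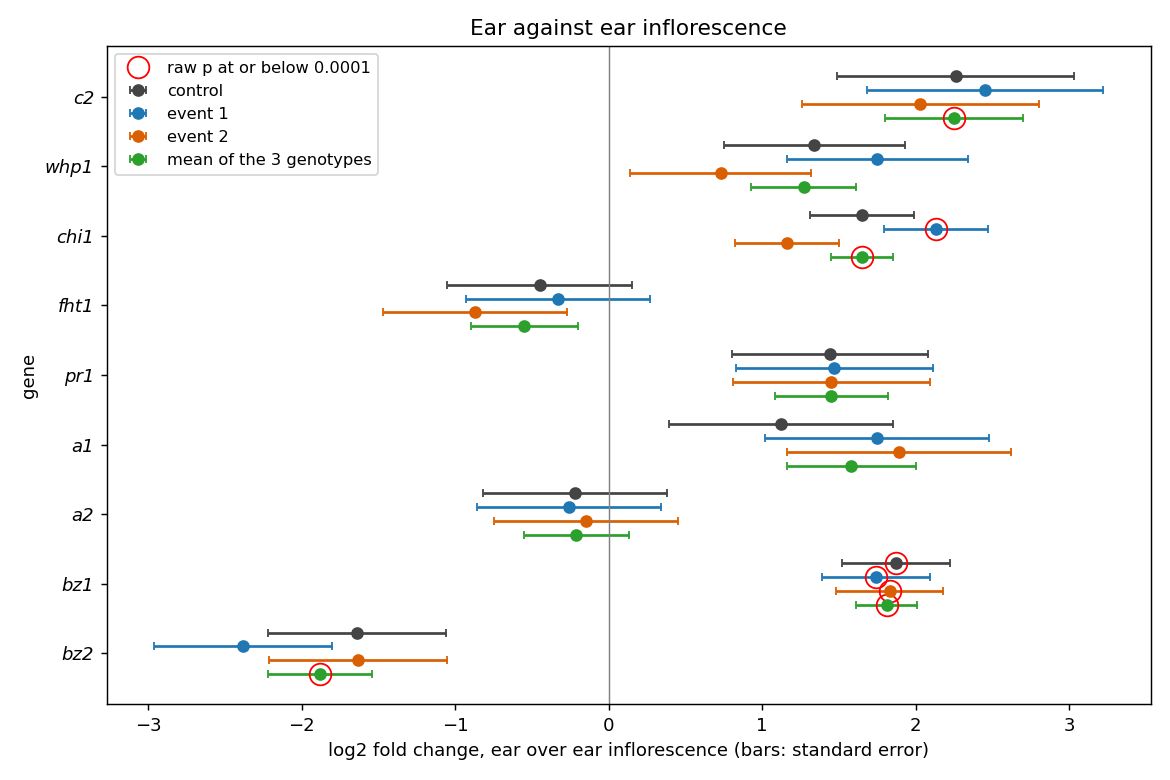
Log2 fold change of ear over ear inflorescence for each gene (rows) in control, event 1, event 2 and their mean, with the standard error from limma as the bar and a red ring where raw_p was at or below 0.0001. bz1 lay between 1.74 and 1.87 in all genotypes, and bz2 between -2.38 and -1.63.

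Within a genotype the difference between tissues passed for fewer genes. In control 1 of 9 did, bz1 at 1.87 (standard error 0.35, adjusted p = 3.2e-04), against 13.8% of all transcripts. chi1 lay just outside the threshold there with 1.65 and a raw_p of 1.2e-04. In event 1 there were 2 of 9, chi1 at 2.13 (standard error 0.34, adjusted p = 7.3e-05) and bz1 at 1.74 (standard error 0.35, adjusted p = 5.5e-04), against 14.8% of all transcripts. In event 2 bz1 passed at 1.83 (standard error 0.35, adjusted p = 6.9e-04), 1 of 9 against 7.87%. With adjusted p under 0.05 the counts were 4 in control (c2, chi1, bz1 and bz2), 5 in event 1 (whp1 as well) and 3 in event 2 (chi1, bz1 and bz2), against 37.3%, 38.5% and 24.3% of all transcripts. edgeR called 5, 7 and 5 of the 9, against 20.8%, 21.1% and 13.2%. The bz1 call within a genotype was lost without any 1 of most libraries: it held in 3 of 18 such fits in control, 2 of 18 in event 1 and 2 of 18 in event 2. The genes higher in all 3 ear libraries than in all 3 ear inflorescence libraries were c2, chi1 and bz1 in control (38.1% of transcripts averaging at least 10), those 3 with whp1, pr1 and a1 in event 1 (33.6%), and chi1 and bz1 in event 2 (28.4%).

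The ear inflorescence libraries were not alike in this pathway. The 3 libraries with the most c2, which were control replicate 3, event 1 replicate 2 and event 2 replicate 1, were also the 3 with the most whp1, pr1, a1 and bz1. That is 5 of the 9 genes, c2 included, and 5 of the 7 with a mean of at least 10. Among all transcripts averaging at least 10, these 3 libraries were the 3 highest for 1281 of 39715 (3.23%). The libraries were singled out from their c2 values after these were seen, so the counts are a description and no test. chi1 did not follow, since event 2 replicate 2 (4950) was above control replicate 3 (3884) and event 2 replicate 1 (4903). bz2 did not follow either, with 50.9, 32.2 and 57.0 in the 3 libraries against 25.4 to 57.8 in the other 6.

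The split was large against the ordinary scatter of replicates. The SD of the log2 values between replicates, pooled over the 3 ear inflorescence groups, was 1.66 for c2, 1.53 for a1, 1.33 for pr1 and 1.23 for whp1, against a median of 0.34 over transcripts averaging at least 10. Those 4 values lay above 99.8%, 99.7%, 99.6% and 99.4% of these transcripts. In ear the same SD was 0.15 for c2, 0.33 for a1, 0.36 for pr1 and 0.16 for whp1, against a median of 0.26. bz2 was the reverse, with 0.34 in ear inflorescence and 1.10 in ear, the second above 99.1% of transcripts and resting on 1 to 29 reads per library. On the first principal component the 3 high libraries lay at 115.7, 72.1 and 93.0, each the nearest to ear within its genotype. Event 2 replicate 2, with 125 for c2, lay at 93.5. Their carpel and ovule sums were 7856, 13396 and 11039, of which the last 2 were the highest of all ear inflorescence libraries, while control replicate 1, with 91.1 for c2, had 8088. Their leaf and husk sums were 2937, 3454 and 3241. The part of tissue makeup or stage in this split was not tested.

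**Figure D3:**
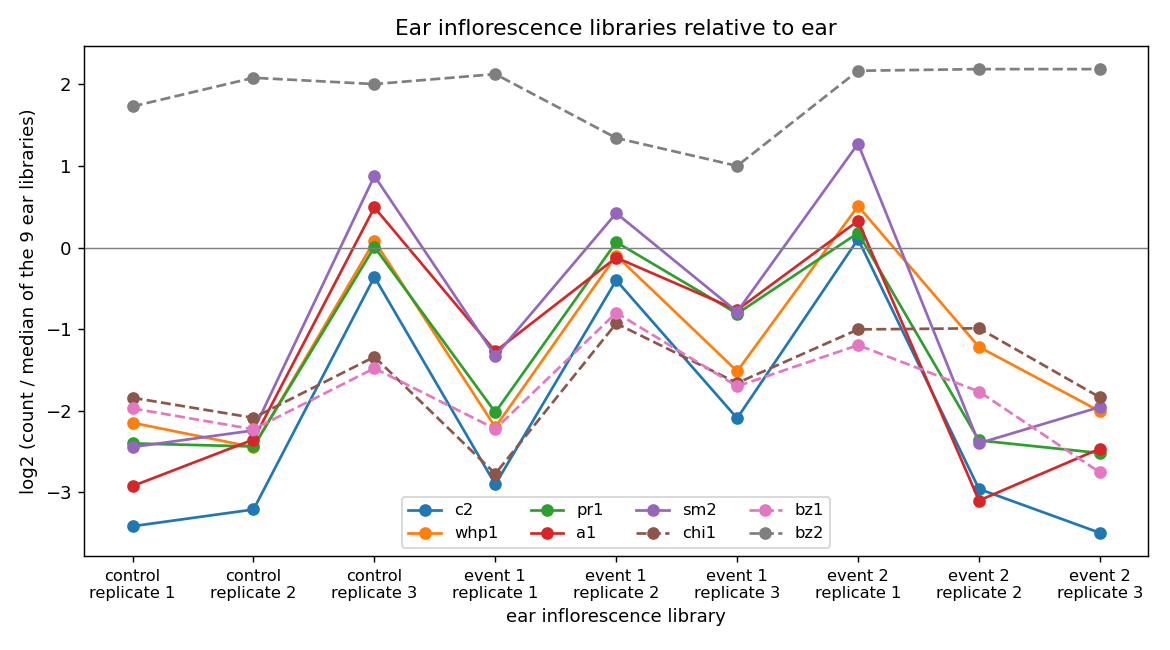
Log2 of the normalized count in each ear inflorescence library (horizontal axis) over the median of the 9 ear libraries, for 7 members and for sm2, with solid lines for c2, whp1, pr1, a1 and sm2 and dashed lines for chi1, bz1 and bz2. The solid lines peak together in control replicate 3, event 1 replicate 2 and event 2 replicate 1.

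Other genes of the pathway were taken from a list of regulators, transport, side-branch and entry genes, of which 12 identifiers were measured. Measured symbols were 5 of 14 regulators, 2 of 4 transport, 3 of 15 side-branch and 2 of 14 entry symbols. The entry symbols came to 1 identifier, so the 12 are no survey of the rest of the pathway. pal1, phenylalanine ammonia lyase at the entry of the pathway, had 3635, 4252 and 5669 in control ear inflorescence and 18960, 21368 and 26492 in control ear. Its log2 difference was 2.31 (standard error 0.27, adjusted p = 3.5e-06). It was the 1 identifier of the 12 that passed in control, and the 1 that passed in event 1 (2.52) and in event 2 (1.90). The shares of all transcripts that passed were 13.8%, 14.8% and 7.87%. Over the 3 genotypes sm1, the rhamnose synthase of maysin synthesis, passed as well, at 0.85 (standard error 0.16, adjusted p = 1.2e-04), and no identifier of the 12 fell past the threshold. That made 2 of 12, against 29.0% of all transcripts. sm2, the rhamnosyltransferase of maysin synthesis, had 33.6, 38.7 and 336 in control ear inflorescence, 72.8, 245 and 106 in event 1, and 442, 34.7 and 47.2 in event 2. These are the same 3 high libraries as for c2, and sm1 had the same 3 highest, so 2 of the 12 shared them. The pooled SD of sm2 in ear inflorescence was 1.64. mrp4 and mrp1 stood on the list as transport genes, and whether they move flavonoids was not tested. They had 605 to 1310 and 343 to 768 in ear inflorescence and 590 to 752 and 309 to 716 in ear. Their log2 differences over the 3 genotypes were -0.45 (adjusted p = 9.3e-04) and -0.37 (adjusted p = 0.045). ugt708a6, a flavone C-glucosyltransferase gene, had 45.0 to 116 and 49.6 to 89.4. The median log2 fold change of the 12 identifiers was -0.01, against 1.45 for the 9 genes.

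Of 14 regulator symbols on the list 5 were measured, as 6 identifiers, and b1 was not among them. Of those measured, c1, pl1 and r1 were at few reads, while p1 and pac1 were not. c1 had 0 or 1 read and pl1 0 to 2 reads in every library, which are at or under a floor of 3 reads. r1 had 0 to 4 reads in ear inflorescence, with none in 7 of the 9 libraries, 2 in event 1 replicate 2 and 4 in event 2 replicate 1, and 0 to 10 reads in ear. The libraries with r1 reads in ear inflorescence are 2 of the 3 with the most c2, and the third, control replicate 3, had none. Its reads came to 6 in all 9 ear inflorescence libraries and 28 in all 9 ear libraries, a log2 difference of 1.34 over the 3 genotypes (standard error 0.41, adjusted p = 0.010), which did not reach raw_p 0.0001. p1 was measured at 40.8 to 71.5 in ear inflorescence and 28.8 to 76.8 in ear, with its highest ear inflorescence value in control replicate 3. pac1, a WD40 cofactor of the MYB and bHLH regulators, had 215 to 305 and 223 to 287 (GRMZM2G058292), and its second identifier (GRMZM2G058432) had 177 to 529 and 372 to 653, a log2 difference of 0.60 over the 3 genotypes (standard error 0.15, adjusted p = 0.0027). Differences in c1 and pl1 were not detectable at this depth.

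The second comparison asked whether the events differ from control. In ear, c2, whp1, chi1, pr1 and a1 had all event 1 libraries above all control libraries. These 5 of the 9 genes stand against 12.5% of transcripts averaging at least 10. The largest difference was in a1, but none of the 9 passed the threshold in limma in any comparison of genotypes. The mean normalized count of a1 was 1245 ± 249 in control ear, 3532 ± 720 in that of event 1 and 1937 ± 571 in that of event 2 (SD, n = 3 for each). Event 1 over control came to a log2 difference of 1.50 (standard error 0.73, raw_p = 0.052, adjusted p = 0.75), a 2.84-fold difference, and event 2 over control to 0.62 (standard error 0.73, adjusted p = 1.0). All 6 event libraries of a1 were above all 3 control ear libraries, as for 1.38% of transcripts averaging at least 10. In an exact two-sided permutation test of the log2 values of both events against control, a1 had p = 0.036, where the smallest p that 1 order of the libraries can give is 0.012. That was the 1 value under 0.05 in 18 such tests, of 9 genes in both tissues, and in the limma fit of both events a1 had 1.06 (standard error 0.63, adjusted p = 0.99).

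The standard error of a1 in limma is shared with ear inflorescence, where its replicates scattered most. In a fit to the control and event 1 ear libraries alone, the standard error fell to 0.22 and the raw_p to 0.0014, with an adjusted p of 0.17. edgeR on the recovered reads called a1 in event 1 ear (log2 fold change 1.49, adjusted p = 3.7e-05) and in both events together (1.06, adjusted p = 0.0058), where it called 0.604% and 0.376% of all transcripts. DESeq2 gave adjusted p = 0.84 and 1.00 for the same comparisons. The adjusted p of a1 in event 1 ear lay between 3.7e-05 and 0.99 over 28 changes of setting, and its log2 fold change between 1.33 and 1.62.

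**Figure D4:**
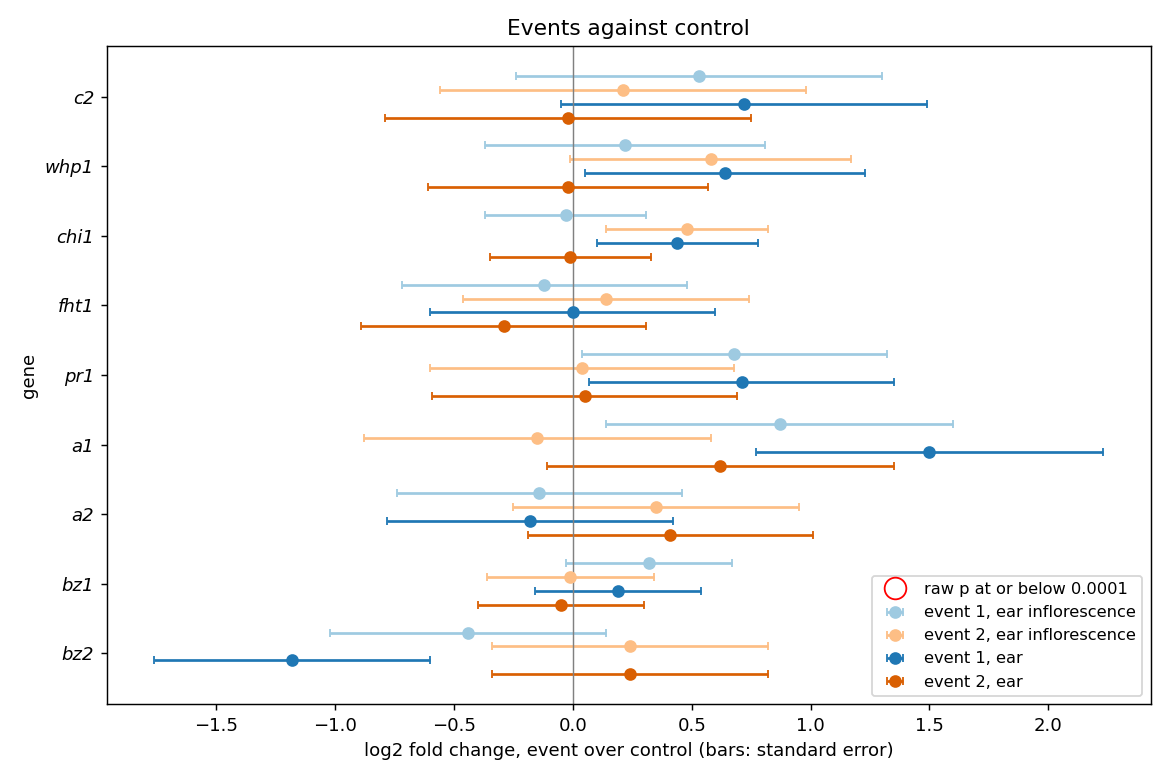
Log2 fold change of each event over control for each gene (rows) in ear inflorescence and in ear, with the standard error from limma as the bar. No point carries a red ring, since no gene reached a raw_p of 0.0001. a1 in event 1 ear lay at 1.50 and bz2 in event 1 ear at -1.18.

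In event 1 ear 5 of the 9 genes, c2, whp1, chi1, pr1 and a1, had all 3 libraries above all 3 control ear libraries, against 12.5% of transcripts averaging at least 10. Sums of marker lists also differed between event 1 and control ear. In replicates 1, 2 and 3 of event 1 ear the leaf and husk sum was 6782, 7059 and 7118 against 5903, 5619 and 5642 in control ear. The carpel and ovule sum was 23041, 21895 and 22022 against 20354, 20741 and 19021. The endosperm-list sum was 84608 to 96317 against 72325 to 81010, the inflorescence meristem sum 10475 to 10826 against 11187 to 14134, and the first principal component -150.4 to -138.3 against -123.7 to -112.6. None of these 5 measures overlapped between event 1 and control ear, but the anther-list sum did, at 1847 to 2538 against 2373 to 3781. In event 2 ear the inflorescence meristem sum, 10316 to 10988, was also below control, and the other measures overlapped control. Event 2 ear replicate 1, with c2 at 1046, had a carpel and ovule sum of 22411 and a first principal component of -158.7. The part of these measures in the result was not tested. For the genes in event 1 ear, c2 had 1543 ± 172 against 934 ± 41.3 in control ear, a log2 difference of 0.72 (standard error 0.77, adjusted p = 0.97). whp1 had 172 ± 11.9 against 111 ± 15.6 and a log2 fold change of 0.64 (standard error 0.59), chi1 had 12506 ± 1256 against 9189 ± 868 and 0.44 (standard error 0.34), and pr1 had 699 ± 135 against 422 ± 49.8 and 0.71 (standard error 0.64, SD and n = 3 each). Without the ear inflorescence and event 2 libraries the standard error for c2 was 0.10 and its raw_p 8.7e-04, with an adjusted p of 0.16. bz1 differed little, at 0.19 (standard error 0.35). bz2 was at 22.6, 1.26 and 5.62 in event 1 ear and 11.7, 22.4 and 12.7 in control ear, a log2 difference of -1.18 (standard error 0.58, raw_p = 0.057) on 1 to 19 reads per library, and its groups overlapped. Without event 1 ear replicate 1 this value was -2.05, and without replicate 2 it was -0.35. sm2 had 275, 501 and 417 in event 1 ear against 183, 157 and 120, a log2 difference of 1.35 (standard error 0.79, adjusted p = 0.86).

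Event 2 ear did not share this pattern: c2, whp1, chi1, pr1 and bz1 had log2 fold changes between -0.05 and 0.05 against control, each with a standard error of 0.34 or more. a1 alone had 3 libraries above all control ear libraries, against 3.44% of transcripts. Against event 2, event 1 ear was higher without overlap for c2, whp1 and a1, as for 9.18% of transcripts, with log2 fold changes of 0.74, 0.66 and 0.89 and adjusted p of 0.96, 0.95 and 0.95 in limma. bz2 had the lowest raw_p of that comparison, 0.025, with a log2 difference of -1.42 (standard error 0.58, adjusted p = 0.87). That value was -2.29 without event 1 ear replicate 1 and -0.59 without event 1 ear replicate 2.

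In ear inflorescence the wide scatter left little to compare. The log2 fold changes ran from -0.44 to 0.87 in event 1 and from -0.15 to 0.58 in event 2, and the value for a1 in event 1, 0.87 (standard error 0.73), fell between 0.14 and 1.91 over the changes of setting. No member of event 1 stood apart from control without overlap, where 1.54% of transcripts averaging at least 10 were higher and 1.44% lower in this way. In event 2 bz2 did, at 57.0, 57.8 and 57.8 against 42.1, 53.7 and 50.9, as did 8.06% of transcripts in that direction. The differences of an event's effect between ear and ear inflorescence ran from -0.74 to 0.63 for event 1 and from -0.61 to 0.77 for event 2, with a lowest raw_p of 0.32.

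The counts of 0 called genes stand against small shares of all transcripts. The share called at raw_p 0.0001 in ear inflorescence was 0.0574% for event 1, 0.0666% for event 2, 0.0653% for both events and 0.0640% for event 1 against event 2. In ear it was 0.128%, 0.0444%, 0.0705% and 0.0548% in the same order, and for the difference of the effect between tissues 0.0196% in event 1 and 0.0117% in event 2. At a raw_p under 0.05 the 9 genes gave 1 value, bz2 in event 1 against event 2 in ear. All transcripts gave 2.79%, 4.36%, 2.77% and 4.93% in ear inflorescence, 6.76%, 3.82%, 5.18% and 5.27% in ear, and 4.27% and 5.08% for the differences between tissues. Apart from a1, edgeR called no member in a comparison of genotypes. DESeq2 called none, but it gave no p for c2.

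The 2 chalcone synthase genes moved together but not in proportion. Reads of c2 over reads of whp1 ranged from 2.40 to 6.53 in ear inflorescence, with a median of 4.95, and from 7.33 to 9.90 in ear, with a median of 8.58, so the tissues did not overlap in this ratio. The lowest value was that of event 2 ear inflorescence replicate 2. A read that fits several transcripts was counted on each, so reads shared by these similar genes would stand in both counts. whp1 is uncertain for a further reason: GRMZM5G818346 had between 0.933 and 1.000 times the reads of whp1 in every library and never more, with equal reads in 3 libraries, so the reads of these 2 identifiers cannot be told apart. For the other members with enough reads, no transcript ran so close, the nearest being within a 1.49-fold range of ratios for chi1.

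**Figure D5:**
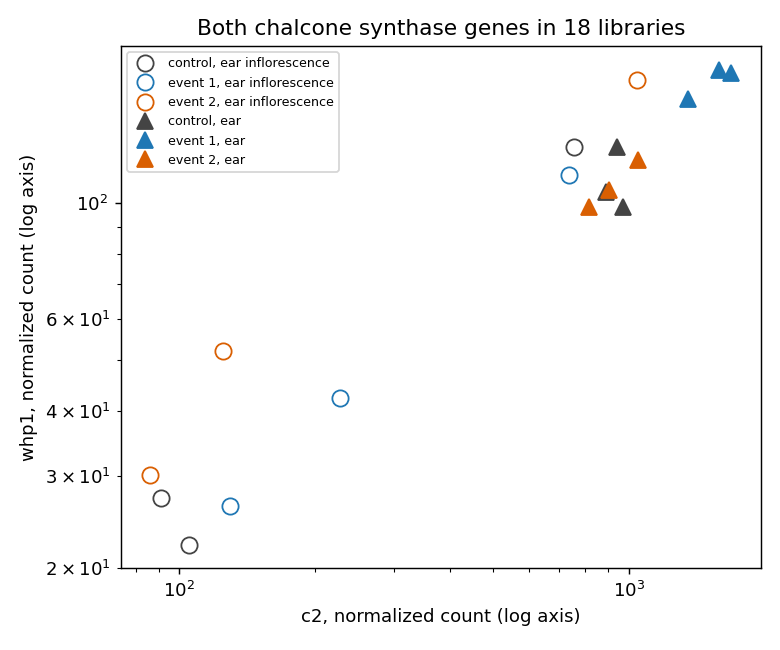
Normalized count of whp1 (vertical log axis) against c2 (horizontal log axis) in 18 libraries, with open circles for ear inflorescence, filled triangles for ear and colour for genotype. The 3 ear inflorescence libraries with c2 at 736 to 1044 lie beside the ear libraries and the other 6 lie at the lower left.

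Likeness was measured as Pearson's r with the mean standardised log2 value of the 7 members with a mean of at least 10, over the 18 libraries, which share tissue and genotype groups. Each member is part of the mean it was compared with, here and for the deviations below, which raises its r by construction. The members themselves had r of 0.989 (c2), 0.975 (whp1), 0.971 (pr1), 0.915 (a1), 0.906 (bz1), 0.874 (chi1) and -0.610 (bz2). The most similar other transcripts were GRMZM5G818346 (0.980), which is the near copy of whp1, and GRMZM2G447785 and GRMZM2G447804 (0.968 each), none of which has a gene name in the reference table. GRMZM2G447785 had 79.9, 115 and 1150 in control ear inflorescence, 142, 888 and 440 in event 1, and 785, 171 and 170 in event 2, the same 3 high libraries as c2. GRMZM2G447804 ran nearly in proportion to it in all 18 libraries, with 40.7, 58.0 and 580 in control ear inflorescence. Whether these 2 identifiers count the same reads was not tested. Over deviations from the group means, which leave only differences between replicates, r was 0.968 for c2, 0.984 for whp1, 0.963 for pr1, 0.883 for a1 and for bz1, 0.783 for chi1 and -0.010 for bz2. The most similar other transcripts by that measure were GRMZM5G818346 (0.986), GRMZM2G063550 (0.961) and GRMZM2G076468 (0.955).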

How the data were processed

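The authors sequenced RNA of 18 samples in reads of 50 bases, mapped them with Bowtie 0.12.8 to the B73 transcriptome version 5a, ignored reads that fitted over 10 transcripts, counted any other read on each transcript it fitted, and scaled the counts with DESeq across samples. CASAVA 1.8.2 is also in the submitters' processing notes. The library kit does not mark strand. The deposited values are that normalized signal, for 76612 identifiers. Division by each sample's step between low values (0.5899 to 1.4054) gave whole reads for 556575 of 556575 low values (100.00%, within 0.006). Samples were grouped by their labels, and no sample or column was left out.

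Main tests used limma 3.58.1 (R 4.3.3) on log2(normalized signal + 1), 6 group means, all samples and identifiers, with moderated variances and a trend (prior degrees of freedom 6.85). Fold changes on this scale understate changes of low transcripts. A transcript was called at raw p at or below 0.0001, with Benjamini-Hochberg adjusted p over all transcripts. P-values of the main test rest on the spread between biological replicates (3 per group), pooled over the 6 groups and moderated over transcripts. Alternatives were a pseudocount of 0.1, a mean of at least 10, only the groups compared, a replicate block, quantile and TMM normalization, no moderation, edgeR 4.0.16 (quasi-likelihood) and DESeq2 1.42.0 (Wald) on recovered reads, c2 and whp1 added, and leaving out libraries. Scripts were tested on simulated data. Of the 12 other pathway identifiers, those that passed in control between tissues or in an event comparison were to be named. The rest were named after their values were seen. Also named are the 3 transcripts most like the members by each measure, and some genes of the marker lists. Members and lists were chosen with earlier results of these data known. Names come from the synonyms in RefSeq's gene table (assembly Zm-B73-REFERENCE-NAM-5.0), in which 18629 identifiers were found. Its coordinates belong to another build and are not used here, nor are sequences or transcript lengths. Figures used matplotlib 3.10.9 (Python 3.11.15, with pandas 2.3.3 and numpy 2.4.6).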

Additional observations from a re-analysis of the deposited data

How the results depend on the processing

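Depth limited fht1, a2 and bz2 in ear. bz1 and chi1 over the 3 genotypes kept their direction and call in every setting, and no call of a gene in a comparison of genotypes was made outside edgeR. For ear against ear inflorescence, the number of the 9 genes called in control (1 in the main test) was 5 with edgeR, 2 with DESeq2, 2 with a pseudocount of 0.1, and 0 with only the groups compared, quantile normalization or no moderation, and 0 to 2 without 1 library. In event 1 (2) it was 7 with edgeR, 1 with the replicate block or quantile normalization, 0 with only the groups compared, no moderation or without the 2 libraries that stand apart (event 1 ear inflorescence replicate 1 and event 2 ear replicate 2), and 0 to 2 without 1 library. In event 2 (1) it was 5 with edgeR, 0 with only the groups compared, quantile normalization, no moderation or without those 2 libraries, and 0 to 1 without 1 library. Over the 3 genotypes (4) it was 7 with edgeR, 2 with quantile normalization, no moderation or without those 2 libraries, and 2 to 3 without 1 library. Fits without a library had fewer samples, and the cause of the other changes was not tested. For event 1 and for both events against control in ear it was 1 with edgeR (a1), in place of 0.

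Replicate numbers showed no clear pairing of the samples: 5 of 45 correlations of same-numbered deviations were over 0.1 (-0.51 to 0.25). With 3 replicates per group this cannot exclude shared blocks in the field. With the replicate block the log2 fold change of c2 over the 3 genotypes stayed 2.25 and lost its call (adjusted p = 6.5e-04 from limma). Between tissues, directions turned only for fht1 and a2 within a genotype: a2 in control was 0.05 with quantile normalization and 0.12 without control ear replicate 1, a2 in event 1 was 0.04 without those 2 libraries or event 1 ear inflorescence replicate 1, 0.12 without its replicate 2 and 0.29 without event 1 ear replicate 1, and a2 in event 2 was 0.03 without event 2 ear inflorescence replicate 2 and 0.17 without event 2 ear replicate 1. fht1 was 0.12 in control without control ear replicate 2 and 0.23 in event 1 without event 1 ear replicate 3. Over all fits without 1 library these differences ran from -0.44 to 0.12, -0.94 to 0.29 and -0.32 to 0.17 for a2 in control, event 1 and event 2, and from -0.84 to 0.12 and -0.87 to 0.23 for fht1 in control and event 1. In the comparisons of genotypes, where no limma call was made, 38 of the 70 values of the other 7 genes changed direction in at least 1 setting, with sizes up to 0.77 in the main test, and 0 of these were of event 1 against control in ear. DESeq2 gave no p for c2, either between tissues or between genotypes. A level per coding length was not run.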
